A study of Mus musculus with 18 samples.

Results

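The miRNAs mmu-miR-124-3p, mmu-miR-375-3p and mmu-miR-7a-5p (mouse prefix left out below) are the 3 members described here. They were chosen by name from a table of kidney small RNA that held 902 names, 735 of them mouse names. A miRNA is a short RNA that, bound to an Argonaute protein, pairs through its seed (bases 2 to 8) with messenger RNAs and lowers their output. All 3 members are classed as neuroendocrine. miR-124 is the most typical miRNA of neurons, where it represses non-neuronal transcripts. miR-375 is abundant in pancreatic islets, pituitary and other secretory epithelia, and restrains insulin secretion in beta cells. miR-7 is rich in islets, pituitary and hypothalamus and is bound by the circular RNA Cdr1as in brain.

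Small RNA libraries came from mouse kidney, with 6 libraries in each of 3 groups. The treated group was C57BL/KsJ mice labelled as diabetic nephropathy (DN) and dosed daily at 10 mg/kg/day with germacrone, a sesquiterpene of plant origin. DN mice were also C57BL/KsJ and received 0.9% saline, and control mice were C57BL/6J and received 0.9% saline. Strain changed together with disease between control and the other groups, so the effects of strain and disease cannot be told apart there. Whether each library came from a separate animal is not stated, so p-values measure the spread between these libraries, which may be technical. Total counts were 3657879 to 5972069 in treated, 3645173 to 7239343 in DN and 3700672 to 6654035 in control libraries. DN 2, DN 3 and control 2 stood apart from their groups, with median correlations of log2 CPM (counts scaled to a common library total) with their own group of 0.896, 0.926 and 0.946, against 0.958 to 0.973 in the other libraries. All 8 listed tubule and nephron miRNAs, among them miR-192-5p and miR-30a-5p, had reads in all 18 libraries, with summed levels of 165588 to 227741 CPM in treated, 58650 to 210947 in DN (58650 in DN 2) and 109796 to 168278 CPM in control kidneys.

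The mature sequences below show what separates miR-7a-5p from its closest relative; capitals mark the seed. The sequences are RefSeq's for build GRCm38.p6, in which 1 of the 3 members had a mature entry.
mmu-miR-7a-5p: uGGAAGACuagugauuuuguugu
mmu-miR-7b-5p: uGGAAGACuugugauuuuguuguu
Both carry the seed GGAAGAC, and no other of the 1679 mature mouse miRNAs in the table did. They differ by A10U, counted from the 5′ end of miR-7a-5p, and miR-7b-5p is 24 rather than 23 bases long. Identical miR-7a-5p copies lie at chr13:58392841-58392863 on the minus strand, within the Mir7-1 hairpin in an intron of Hnrnpk, and at chr7:78888295-78888317 on the plus strand, within Mir7-2, which overlaps no other gene. miR-7b-5p lies at chr17:56243017-56243040 on the plus strand, in a hairpin that overlaps no other gene. The 2 hairpins of miR-7a are shown because the opposite arm tells them apart where the 5p arm does not; capitals mark the mature arms.
Mir7-1: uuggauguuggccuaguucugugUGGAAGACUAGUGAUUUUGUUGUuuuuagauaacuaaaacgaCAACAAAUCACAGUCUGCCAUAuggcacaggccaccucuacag
Mir7-2: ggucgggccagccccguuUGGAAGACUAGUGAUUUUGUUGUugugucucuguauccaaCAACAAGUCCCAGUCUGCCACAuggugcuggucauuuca
The 3p arms, miR-7a-1-3p and miR-7a-2-3p, differ by A7G, A10C and U21C, counted from the 5′ end of miR-7a-1-3p. The hairpin of miR-375 lies at chr1:74900658-74900721 on the minus strand and overlaps no other gene. miR-124 has 3 hairpin genes on 3 chromosomes.

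In the count table, miR-124-3p stood on 3 entries and miR-7a-5p on 2, and the entries of one name held equal shares of its reads, within 0.001 of a whole read once summed. miR-375-3p stood on 1 entry. Levels below are CPM summed over a name's entries, so that a name is counted once. Fold changes are from edgeR's fit on the entries as deposited. In whole kidney RNA, fewer cells of a type and less RNA per cell cannot be told apart.

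**Figure D1:**
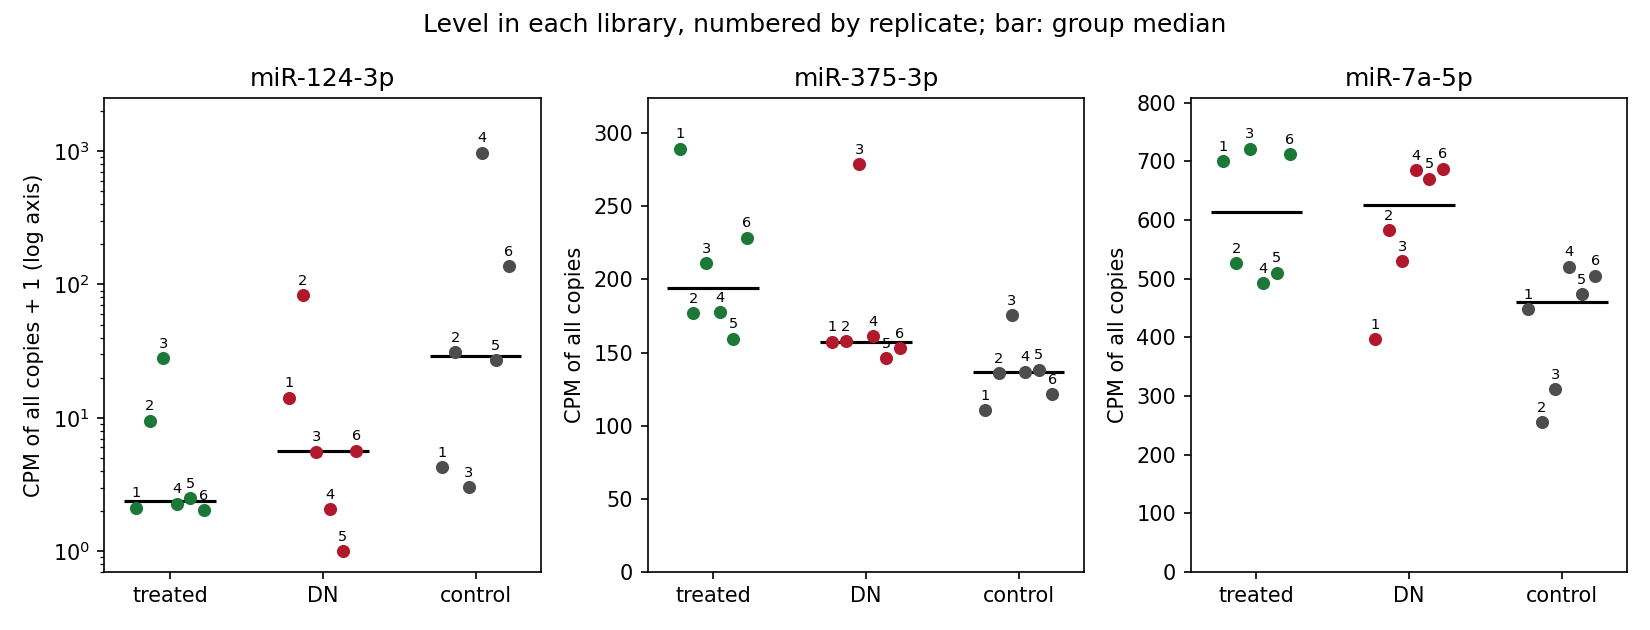
Level of each member in each library (y axis, CPM summed over entries; log axis with 1 added for miR-124-3p), by group (x axis), with points numbered by replicate and a bar at the group median. Control 4, at 975 CPM, stands far above all other libraries for miR-124-3p, while the 18 libraries lie between 110 and 289 CPM for miR-375-3p and between 255 and 721 CPM for miR-7a-5p.

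miR-7a-5p was the most abundant member in every library except control 4, where miR-124-3p, at 975 CPM, exceeded its 520.0 CPM. In treated kidneys miR-7a-5p averaged 610 ± 111 CPM, miR-375-3p 207 ± 47.5 CPM and miR-124-3p 6.74 ± 10.3 CPM (SD, n = 6). In DN kidneys the means were 592 ± 115, 176 ± 50.8 and 17.5 ± 31.8 CPM (SD, n = 6). In control kidneys they were 419 ± 109, 136 ± 22 and 195 ± 385 CPM (SD, n = 6), and 399 ± 109, 136 ± 24.6 and 39.7 ± 55.8 CPM without control 4 (SD, n = 5). miR-124-3p was therefore below miR-375-3p by mean in control kidneys only once control 4 was left out. In single libraries, miR-124-3p exceeded miR-375-3p in control 4 (975 against 137 CPM) and in control 6 (137 against 122 CPM). miRNAs are of like length, so these levels compare between names apart from sequence-dependent differences in ligation.

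The treated libraries had miR-124-3p at 1.03 CPM at the lowest, 1.38 CPM at the median and 27.0 CPM at the highest. DN libraries had 0, 4.64 and 81.8 CPM at the lowest, median and highest. Control libraries had 2.03, 28.1 and 975 CPM, and without control 4 the median was 26.1 and the highest 137 CPM. Each group thus held low libraries of a few CPM beside 1 library whose CPM was over that of the next by a wide margin: treated 3, DN 2 and control 4.

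The reads behind those levels were few. Treated libraries 1, 4, 5 and 6 rested on 5 to 8 reads of miR-124-3p, treated 2 on 31 and treated 3 on 86. DN 5 had 0 of its reads, which allows a level of up to 0.669 CPM (3 reads of the library's total), and DN 2 had 562. Control libraries had 11 to 579 reads except for control 4, which had 4772. A single library supplied most of each group's reads: treated 3 gave 61.4%, DN 2 gave 84.9% and control 4 gave 83.6%. Exact Poisson intervals (95%, counting error only) ran from 0.335 to 2.41 CPM in treated 6, the lowest treated library, and from 126 to 148 CPM in control 6.

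miR-375-3p varied far less. Treated libraries had 160 CPM at the lowest, 194 at the median and 289 at the highest. DN libraries had 146, 158 and 279 CPM, and control libraries 110, 136 and 175 CPM. Leaving out control 4 left the control lowest, median and highest at 110, 136 and 175 CPM. Of the 6 treated libraries, 5 lay above every control library, and the exception, treated 5 at 160 CPM, lay below control 3 at 175 CPM. All 6 DN libraries lay above the control median, but 5 of them fell within 146 and 161 CPM, inside the control range, and DN 3 alone was above it at 279 CPM.

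miR-7a-5p was likewise present in every library. Treated libraries had 493 CPM at the lowest, 613 at the median and 721 at the highest. DN libraries had 397, 626 and 687 CPM, and control libraries 255, 461 and 520 CPM. Without control 4 the control median was 448 and the highest value 505 CPM. DN libraries lay above every control library in 5 of 6 cases, with DN 1 at 397 CPM inside the control range. Treated libraries lay above every control in 4 of 6 cases, and in 5 of 6 without control 4. In neither group did the values separate fully from those of control.

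None of the 3 members passed the threshold (edgeR quasi-likelihood test, Benjamini-Hochberg adjusted p under 0.05 over 619 tested entries) in any of the 3 comparisons, and none of the 619 entries did (0%). DESeq2 called 24 entries in treated against control, 4 in DN against control and 0 in treated against DN. In the same order limma-voom, here always with each library weighted by its estimated quality, called 106, 91 and 0. At an unadjusted p under 0.05 in edgeR, all 3 members passed in treated against control, where 121 entries (19.5%) did. In DN against control 2 of 3 members did, with 47 entries (7.59%), and in treated against DN none did, with 23 entries (3.72%). Without control 4 these counts were 2, 1 and 0 members, beside 17.1%, 6.95% and 3.16% of entries. Members are counted here by name and the background by entry. With the entries of each name summed and all 18 libraries, 17.8%, 7.17% and 4.07% of 516 names passed, in the same order. Among the members 3, 2 and 0 did. No member's groups separated without overlap in any comparison, against 5.33% of entries in treated against control and 0% in each of the other comparisons. The comparisons against control share the 6 control libraries and are not independent of each other. The numbers of libraries on each side of the control median are counts of these libraries and carry no test.

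**Figure D2:**
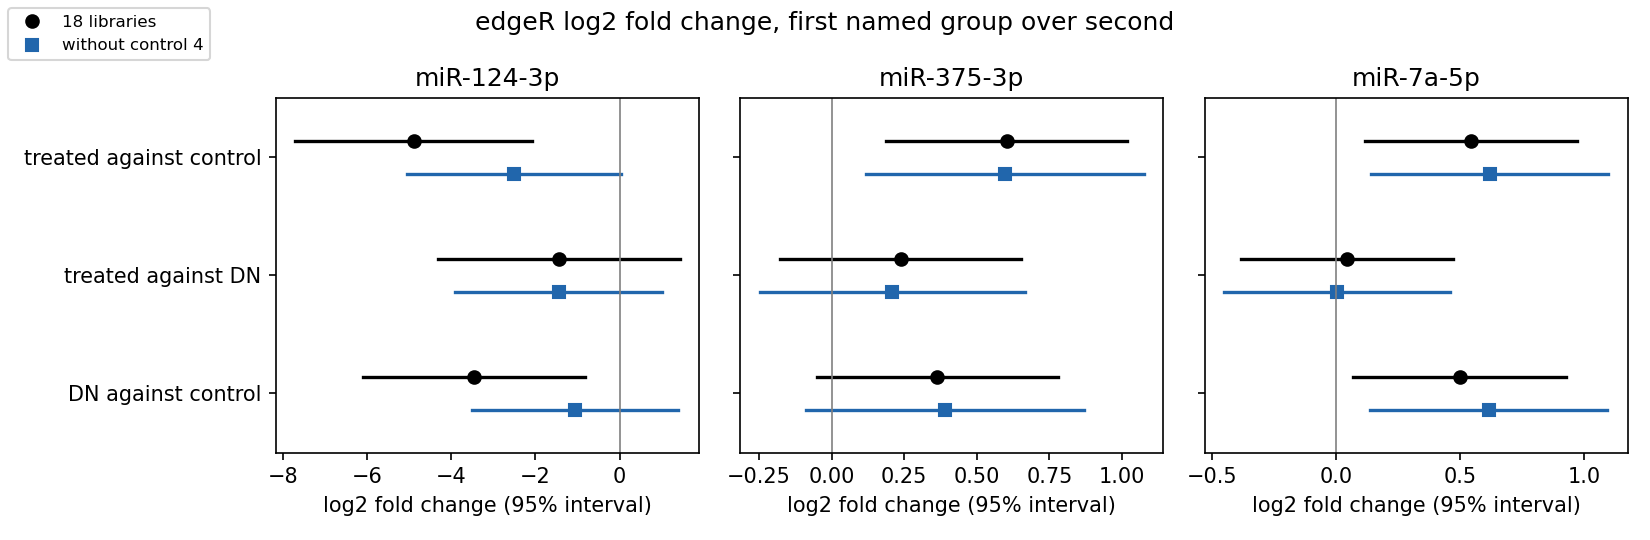
Log2 fold change of each member (x axis, point with 95% interval) for the 3 comparisons (y axis), with all 18 libraries (black circles) and without control 4 (blue squares). Leaving out control 4 moves miR-124-3p in DN against control from −3.45 to −1.06, while the 2 other members move by little.

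Treated against control kidneys asked how the treated C57BL/KsJ mice differ from C57BL/6J controls. For miR-124-3p, the neuron-typical member, the log2 fold change was −4.89 (SE 1.34, 95% interval −7.70 to −2.09, 29.7-fold lower; edgeR unadjusted p = 0.00407, adjusted p = 0.148). With DESeq2 the adjusted p was 0.0181. It passed in 3 of 33 alternative settings, and limma-voom was not among them. All 6 treated libraries lay below the control median. Without control 4 the value was −2.51 (SE 1.21, interval −5.05 to 0.034; edgeR adjusted p = 0.281), with 5 of 6 treated libraries below the control median. The direction was the same, and the interval then reached 0.

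miR-375-3p had a log2 fold change of 0.60 in treated against control (SE 0.20, interval 0.19 to 1.02; edgeR unadjusted p = 0.00696, adjusted p = 0.173), a fold of 1.52. All 6 treated libraries lay above the control median. It was 0.60 without control 4 (interval 0.12 to 1.08; edgeR adjusted p = 0.250). The value for miR-7a-5p was 0.54 (SE 0.20, interval 0.12 to 0.97; edgeR unadjusted p = 0.0158, adjusted p = 0.186), a fold of 1.46, and 0.62 without control 4 (edgeR adjusted p = 0.247). Again all 6 treated libraries lay above the control median. With limma-voom both passed, at adjusted p = 0.0182 for miR-375-3p and 0.0371 for miR-7a-5p. Of 34 alternative settings, miR-375-3p passed in 2 and miR-7a-5p in 1, and neither passed with DESeq2.

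DN against control kidneys gave the same signs. For miR-124-3p the log2 fold change was −3.45 (SE 1.26, interval −6.08 to −0.81, 10.9-fold lower; edgeR unadjusted p = 0.0203, adjusted p = 0.529), with 5 of 6 DN libraries below the control median. It was −1.06 (interval −3.52 to 1.39; edgeR adjusted p = 0.846) without control 4, and −5.35 (interval −8.14 to −2.56; edgeR adjusted p = 0.112) without DN 2 instead. With both left out it was −3.09 (interval −5.47 to −0.72; edgeR unadjusted p = 0.0173, adjusted p = 0.266), near the value from all libraries. The size of the difference therefore moved with which of the 2 libraries were kept.

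miR-375-3p in DN against control had a log2 fold change of 0.36 (SE 0.20, interval −0.051 to 0.78; edgeR adjusted p = 0.684) with all libraries and of 0.39 without control 4 (edgeR adjusted p = 0.644). miR-7a-5p had 0.50 (SE 0.20, interval 0.071 to 0.93; edgeR unadjusted p = 0.0249, adjusted p = 0.529) and 0.62 without control 4 (interval 0.14 to 1.09; edgeR adjusted p = 0.562). With limma-voom miR-7a-5p passed (adjusted p = 0.0286), as it did in only 1 of 34 alternative settings. miR-7a-1-3p, made only from Mir7-1 and thus a relative that follows 1 of the 2 miR-7a hairpins, had 0.042 (edgeR adjusted p = 0.986).

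Treated against DN kidneys compared 2 groups of one strain and so asked about germacrone dosing without the change of strain. Saline is listed for DN and no vehicle is listed for germacrone, so drug and vehicle cannot be told apart. Differences were small for the 2 abundant members: 0.24 for miR-375-3p (SE 0.20, interval −0.18 to 0.65; edgeR adjusted p = 0.809) and 0.045 for miR-7a-5p (SE 0.20, interval −0.38 to 0.47; edgeR adjusted p = 0.988). For miR-7a-5p, 3 of 6 treated libraries lay above the DN median. Its sign turned under 14 of 34 alternatives, and a difference inside that interval was not detectable at this spread. miR-124-3p had a log2 fold change of −1.45 (SE 1.37, interval −4.32 to 1.43; edgeR adjusted p = 0.811), and without DN 2 the sign turned, to 0.50 (interval −2.52 to 3.51; edgeR adjusted p = 0.958).

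Of the relatives, only miR-7a-1-3p had reads in every library. miR-7b-5p, which shares the seed of miR-7a-5p, had reads in 2 libraries: 14 reads (2.04 CPM) in DN 2 and 29 reads (5.92 CPM) in control 4. Its 0 in each of the other 16 allows a level of up to 0.407 to 0.942 CPM, by library. miR-124-5p, the opposite arm of the miR-124 hairpins, had 5 reads in DN 2 and 7 in control 4, and 0 in the other 16. Control 6, with 579 reads of miR-124-3p, had 0 reads of both. No values are given for miR-375-5p, miR-7a-2-3p and miR-7b-3p, because the count table held no entry under these names.

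For miR-7a-1-3p the mean was 31.7 ± 4.63 CPM in treated, 27.2 ± 7.10 CPM in DN and 26.4 ± 7.40 CPM in control kidneys (SD, n = 6 each). Its log2 fold change was 0.26 in treated against control (edgeR adjusted p = 0.578) and 0.22 in treated against DN (edgeR adjusted p = 0.848). The level of miR-7a-5p was 19.7 ± 5.06 times that of miR-7a-1-3p in treated, 23.0 ± 7.30 times in DN and 16 ± 2.02 times in control libraries (SD, n = 6 each), with overlapping ranges. That quotient sets the reads of both miR-7a hairpins against the opposite arm of 1 of them.

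**Figure D3:**
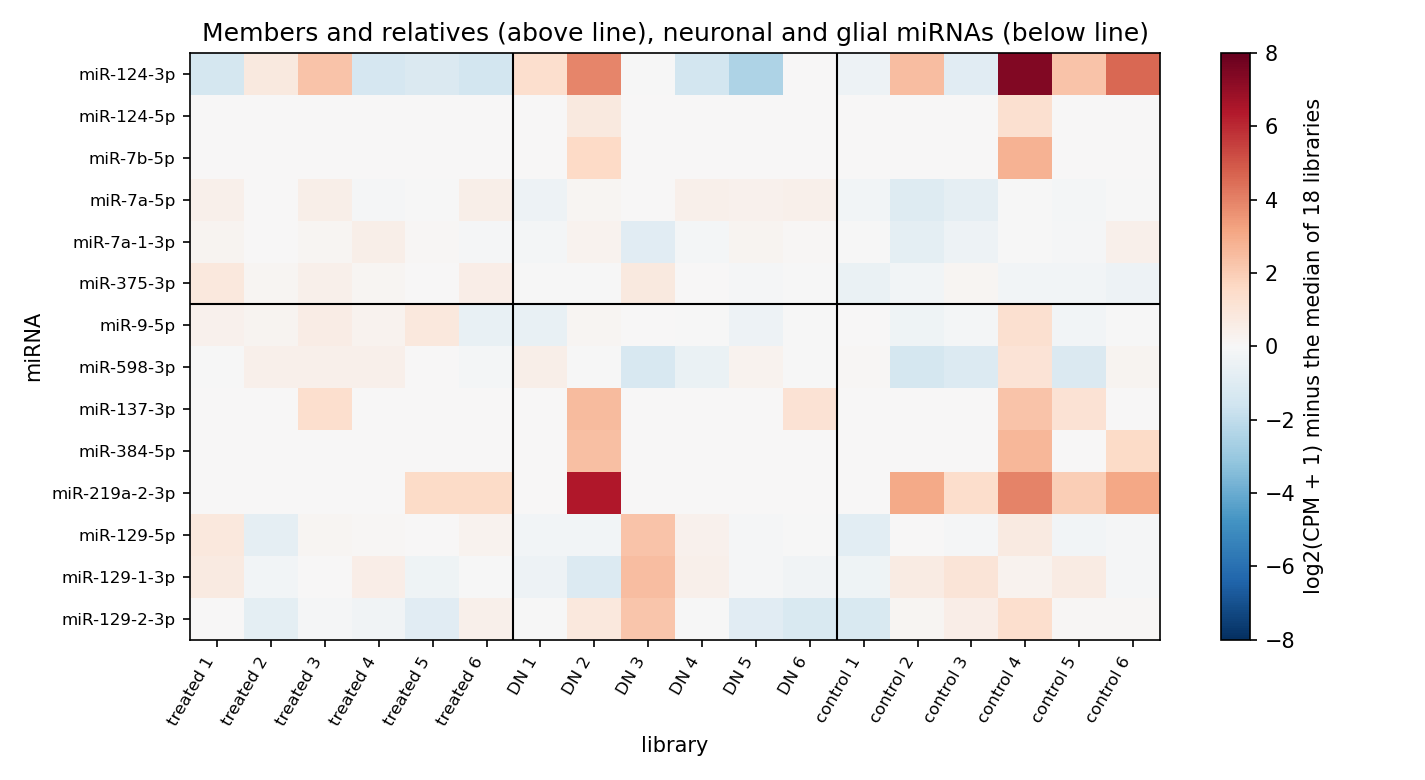
Difference of log2(CPM + 1) from the median of 18 libraries (colour scale) for members and relatives (above the line) and for neuronal and glial miRNAs (below it), by library (x axis). DN 2 and control 4 carry miR-124-3p, miR-124-5p, miR-7b-5p, miR-137-3p, miR-384-5p and miR-219a-2-3p above most libraries, and DN 3 carries miR-129 arms; the miRNAs below the line were chosen after their values were seen.

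Some other nervous-system miRNAs were also high in DN 2 and control 4, 2 of the 3 libraries highest in miR-124-3p, and others were not. The remaining one, control 6 (137 CPM of miR-124-3p), had 0 CPM of miR-137-3p, 1.89 CPM of miR-384-5p and a neuronal sum of 1582 CPM. miR-137-3p, a neuronal miRNA, was at 4.80 CPM in DN 2 and 3.88 CPM in control 4, and at most 1.57 CPM in the other 16 libraries. miR-384-5p was at 4.22 CPM in DN 2, 5.31 in control 4 and 1.89 in 1 other control, and at 0 elsewhere. miR-219a-2-3p, an oligodendrocyte miRNA, was at 85.0 CPM in DN 2 and 14.9 CPM in control 4, and at most 1.88 CPM in the treated, 0 in the other DN and at most 7.56 CPM in the other control libraries. miR-9-5p, a miRNA of neurons and neural progenitors, was at 755 CPM in control 4, against 238 to 316 CPM in the other controls. In DN 2 miR-9-5p was at 349 CPM, below the treated maximum of 545 CPM. DN 2 ranked 18 of 18 for miR-129-1-3p, 16 for miR-129-5p and 15 for miR-218-5p, and control 4 ranked 15 for miR-383-5p, all on the neuronal list.

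Over all 16 listed neuronal miRNAs in the table, the summed level was 1225 to 1781 CPM in treated, 1189 to 1640 in DN and 1106 to 2354 CPM in control libraries. Control 4 had 2354, against 1106 to 1582 in the other controls. The glial list of 3 miRNAs summed to 20 to 31.4 CPM in treated, 19.7 to 170 in DN and 29.3 to 73.7 CPM in control libraries, with DN 2 and control 4 highest. The imprinted Dlk1-Dio3 cluster, rich in brain and endocrine tissue, summed over 23 miRNAs to 112 to 444 CPM in treated, to 897 CPM in DN 2 against 136 to 343 CPM in the other DN libraries, and to 843 CPM in control 4 against 189.6 to 519 CPM in the other controls. The part of any of these values in the miR-124-3p differences was not tested.

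Markers of other tissues moved too. Striated muscle miRNAs (6 in the table) summed to 601 CPM in control 4, against 156 to 184 CPM in the other controls, with miR-1a-3p at 459 CPM. Leukocyte miRNAs (5 of 5 in the table) summed to 11595 CPM in DN 2, against 499 to 697 CPM in the other DN libraries. Those of exocrine pancreas summed to at most 2.48 CPM in treated and 3.35 CPM in DN libraries, and were at 0 in all controls. Red blood cell miRNAs summed to 1369 CPM in DN 2, against 2784 to 4558 CPM in the other DN libraries. Endothelial miRNAs were at 8007 CPM in DN 2, against 8034 to 23319 CPM in the other DN libraries. Smooth muscle miRNAs were at 58365 CPM in control 4, against 26269 to 47577 CPM in the other controls. Liver miR-122 was inside the range of the other libraries of its group in both. Kidney tubule and nephron miRNAs stood at 134042 CPM in control 4, inside the range of the other controls. The part of these values in the results was not tested.

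Of the 17 listed neuronal miRNAs, 13 were tested, and none passed the threshold in any comparison. Their median log2 fold change was −0.0062 in treated against control, −0.019 in treated against DN and −0.0034 in DN against control, beside −0.0035, −0.054 and 0.075 over all tested entries. The 3 most abundant were miR-218-5p, miR-9-5p and miR-128-3p. Their log2 fold changes in treated against control were 0.062, 0.11 and −0.21 (edgeR adjusted p = 0.905, 0.832 and 0.556). The 15 tested Dlk1-Dio3 miRNAs had a median log2 fold change of −0.91 in treated against control and −0.74 in treated against DN, all 15 below 0 and none past the threshold. They belong to a single imprinted cluster, so the 15 signs are not independent of each other. Without control 4 those medians were −0.53 and −0.76. Without DN 2 they were −0.89 and −0.035, and in treated against DN 8 of 15 were then below 0. The summed Dlk1-Dio3 level averaged 260.3 CPM in treated libraries, against 372 CPM in all DN libraries and 267 CPM without DN 2. The 4 tested miRNAs of endocrine and sensory epithelium had medians of 0.35, 0.30 and 0.047 in treated against control, treated against DN and DN against control, with none past the threshold.

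Likeness to other miRNAs was measured as Pearson r of log2 CPM over the 18 libraries, across 440 names whose median r with each member was near 0 (−0.0051, 0.019 and −0.0056 for miR-124-3p, miR-375-3p and miR-7a-5p). For miR-124-3p, the highest were miR-381-3p (r = 0.72), miR-127-3p (0.71), miR-150-5p (0.70), miR-434-3p (0.70) and miR-337-5p (0.70). Of these, miR-381-3p, miR-127-3p, miR-434-3p and miR-337-5p come from the Dlk1-Dio3 region, and miR-150-5p is a lymphocyte miRNA. In treated, DN and control kidneys miR-381-3p averaged only 3.67, 4.17 and 6.69 CPM, and miR-337-5p 2.28, 3.20 and 4.08 CPM (n = 6 each). Their r with miR-124-3p, itself low in most treated libraries, thus rests on few reads. Over the 17 libraries without control 4, 4 of the 5 were again among the highest 5, with miR-15a-3p (0.67) in place of miR-381-3p. Without both control 4 and DN 2, only miR-150-5p (0.69) and miR-337-5p (0.58) were, and miR-381-3p, miR-127-3p and miR-434-3p were no longer among the highest 5. The libraries may share preparation with each other, and r was taken over 3 groups together, so differences between groups enter it. These values are descriptions of 18 libraries with no test.

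miR-375-3p was most like miR-129-5p (r = 0.67), miR-106a-5p (0.62), miR-363-3p (0.62), miR-344-3p (0.61) and miR-27b-5p (0.53), and without control 4 miR-34a-5p replaced the last. Without DN 2 the highest was miR-21a-3p (0.67, against 0.46 over all 18 libraries), and 4 of the 5 names stayed among the highest 5. Without both control 4 and DN 2, 3 of them did. The value for miR-129-5p was 0.54 without DN 3, the library where miR-129-5p stood at 65.3 CPM, against at most 16.3 CPM in the other DN libraries. DN 3 was also the highest DN library for miR-375-3p, at 279 CPM. miR-129-1-3p and miR-129-2-3p were at 122 and 60.1 CPM in DN 3, against at most 28.7 and 22.3 CPM in the other DN libraries.

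miR-7a-5p was most like miR-335-3p (r = 0.82), miR-802-3p (0.77), miR-21a-5p (0.74), miR-148b-5p (0.73) and miR-15b-3p (0.72). Over the 17 libraries without control 4, miR-148b-3p (0.74) took the place of miR-15b-3p. Without DN 2 only miR-335-3p and miR-21a-5p were still among the highest 5, and miR-30a-3p had r = 0.87 and miR-30e-3p 0.81, against 0.41 and 0.46 over all 18 libraries. The r of miR-802-3p, miR-148b-5p and miR-15b-3p did not fall (0.78, 0.75 and 0.73), and other names were higher. miR-335-3p, from an intron of the imprinted gene Mest, averaged 38.3 ± 7.72 CPM in treated, 25.9 ± 8.40 CPM in DN and 19.5 ± 4.86 CPM in control kidneys (SD, n = 6 each). miR-802-3p, the opposite arm of a miRNA raised in obese mouse liver, averaged 19.7 ± 7.27, 19.1 ± 14.5 and 2.26 ± 2.38 CPM in treated, DN and control kidneys (SD, n = 6 each).

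**Figure D4:**
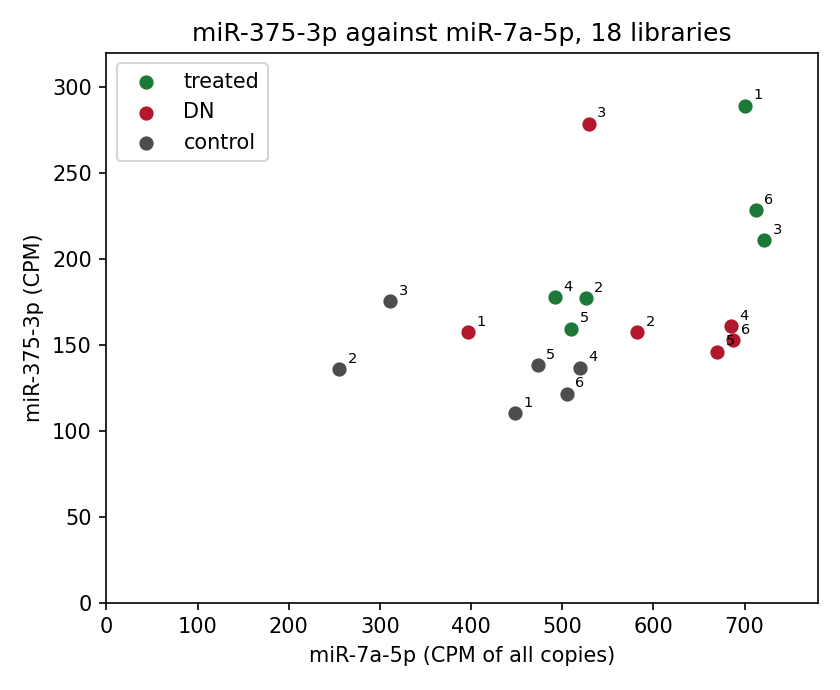
Level of miR-375-3p (y axis, CPM) against miR-7a-5p (x axis, CPM summed over entries) in the 18 libraries, coloured by group and numbered by replicate. The 6 treated libraries hold miR-375-3p at 160 to 289 CPM, and the control libraries overlap the others on both axes, with control 3 at 175 CPM of miR-375-3p and control 4 at 520.0 CPM of miR-7a-5p.

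Among themselves, the members were weakly to moderately related over the 18 libraries, depending on the measure. The Pearson r of log2 CPM was 0.39 between miR-375-3p and miR-7a-5p, −0.38 between miR-124-3p and miR-375-3p and −0.20 between miR-124-3p and miR-7a-5p. Without control 4 these were 0.40, −0.34 and −0.26. By rank (Spearman rho), the 18 libraries gave 0.54, −0.46 and −0.30 in the same order. miR-7a-5p and miR-7a-1-3p had r = 0.52 with all libraries and without control 4.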

How the data were processed

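Estimated counts and normalized signal of 18 kidney libraries were deposited in 1 table. Per the labels, RNA was extracted with Trizol, TruSeq small RNA libraries were run on an Illumina HiSeq, and the authors filtered reads with ACGT101-miR. The submitters' processing notes name Trimmomatic 0.32, BWA, SAMtools and edgeR; no genome build or miRBase version is given in the sources used here. Of the deposited estimated counts above 0, 75.7% were whole (within 0.001), and equal shares stood on copies of one name. The normalized signal deposited by the authors was used in 1 alternative only. Unnamed entries (350, 0.0136% to 0.148% of counts) were left out.

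Counts were rounded and fitted with edgeR 4.0.16 in R 4.3.3 (filterByExpr by group, minimum count 10 and total 15; TMM; quasi-likelihood, legacy method; all 18 libraries, group only). Adjustment was Benjamini-Hochberg over 619 entries. The fitting code was tried on simulated counts of smaller spread than the common estimate here, with larger changes than those of miR-375-3p and miR-7a-5p. That trial cannot show how the fits perform on entries of large spread, such as miR-124-3p, or on small changes. Log2 CPM used a prior count of 2. The members, lists and rule for named miRNAs (the members, their relatives, 3 neuronal miRNAs of highest mean, 5 names most like each member) were chosen with earlier results of these data known. Other names were picked after their values were seen. Coefficients of variation of the fit were 1.45, 0.27 and 0.28 for miR-124-3p, miR-375-3p and miR-7a-5p. All 45 pairs of libraries within groups differed by more than counting noise. Alternatives used limma 3.58.1 (limma-voom with each library weighted by its estimated quality) and DESeq2 1.42.0.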

Additional observations from a re-analysis of the deposited data

Results flagged for a closer look

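Of the 9 combinations of member and group, 4 held a library whose gap to the next was above Dixon's critical value for 6 values on the CPM scale. Chance gives about 1 in 20 for values with a normal spread, which the skewed CPM of miR-124-3p do not have, so that rate cannot be read onto its 3 gaps. For miR-124-3p these were treated 3 at 27.0 CPM, with the next library at 8.53, DN 2 at 81.8 CPM, with the next at 13.2, and control 4 at 974.6 CPM, with the next at 137. For miR-375-3p it was DN 3 at 278.8 CPM, with the next library at 161. miR-7a-5p had none. On log2(CPM + 1), an alternative chosen after seeing the data, only the DN 3 gap for miR-375-3p was past the critical value (0.849 of the group's range), and the gaps for miR-124-3p were 0.411, 0.400 and 0.339 of the range in treated, DN and control libraries.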

How the results depend on the processing

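Entries called in DN against control, 0 with the test used, were 2 with a filter of 10 CPM in 6 libraries, 4 with DESeq2, 91 with limma-voom, 6 with the edgeR 4 method, 51 without control 2, DN 2 and DN 3, 1 without control 4 and DN 2, and 0 to 6 with 1 library left out (6 without DN 2 or DN 3). In treated against control they were 24 with DESeq2, 106 with limma-voom, 3 with the edgeR 4 method, 56 with only those 2 groups, 50 without the 3 libraries, 1 without control 4 and DN 2, and 0 to 7 with 1 left out (7 without DN 2). In treated against DN there were 0 throughout.

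miR-124-3p passed in treated against control with DESeq2 (−4.86, adjusted p = 0.0181), with only 2 groups (−4.93, 0.0423) and without the 3 libraries (−5.15, 0.0399). In DN against control it passed without the 3 libraries (−5.66, 0.0461). Those 3 had the lowest correlations with their own groups in these same data. DN 2 among them was the highest DN library for miR-124-3p (81.8 CPM), so leaving it out lowers the DN level. With 1 library left out, the miR-124-3p value ran from −5.96 to −2.51 in treated against control and from −5.35 to −1.06 in DN against control. miR-375-3p passed in treated against control with limma-voom (0.62, 0.0182) and without the 3 libraries (0.57, 0.0483). miR-7a-5p passed with limma-voom in treated against control (0.54, 0.0371) and DN against control (0.59, 0.0286). In treated against DN the sign turned for miR-124-3p with limma-voom (1.20), without the 3 libraries (0.504), without control 4 and DN 2 (0.503) and over −2.73 to 0.496 with 1 left out. For miR-7a-5p it turned with RLE factors (−0.0045), library size (−0.085), the 10 CPM filter (−0.010), DESeq2 (−0.0048), limma-voom (−0.054), the normalized columns (−0.0094), 2 groups (−0.025), 1 entry per name (−0.020), without the 3 libraries (−0.0037) and over −0.103 to 0.0772 with 1 left out. The cause was not tested.

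Equal replicate numbers showed no sign of pairing: deviations of 18 same-number pairs had a mean r of −0.045, 3 exceeded 0.1, and 0 libraries correlated best with their own number. The labels do not say whether the numbers pair libraries, and these values cannot show that they do not. With the replicate block, 0 entries were called and the values were −4.23, 0.60 and 0.57 for miR-124-3p, miR-375-3p and miR-7a-5p in treated against control, −1.07, 0.26 and 0.054 in treated against DN, and −3.17, 0.34 and 0.52 in DN against control. miR-124-3p could not be fitted under the 10 CPM filter, nor in treated against DN with 2 groups.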

Other observations

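Chosen after values were seen, the miRNA that ran most opposite to miR-7a-5p over the 18 libraries was miR-345-5p, with a Pearson r of log2 CPM of −0.91, and −0.91 without control 4. Within the groups the r was −0.97 in treated, −0.71 in DN and −0.92 in control libraries (n = 6 each). Its level was 128 ± 21.4 CPM in treated, 140 ± 39.4 CPM in DN and 199 ± 53.3 CPM in control kidneys (SD, n = 6 each). It was picked as the most negative of 440 names, so the value describes these libraries and carries no test. The one most opposite to miR-124-3p over the 18 libraries was miR-204-5p, an epithelial miRNA, with r = −0.75. Without control 4 its r was −0.65, and another name was then more opposite (−0.69). Within the groups its r was −0.32 in treated, −0.85 in DN and −0.93 in control libraries (n = 6 each).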
